A study of Homo sapiens with 6 samples.

Results

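The genes described here are 10 genes linked to pluripotency, taken by name from the 60107 gene IDs of the count table: POU5F1, NANOG, DPPA2, DPPA4, ZFP42, UTF1, L1TD1, DNMT3B, SALL4 and TDGF1. All 10 were matched to a row by Ensembl ID. The rule names the genes and sets no threshold on a measured value, though earlier results of these data were known when they were named. RNA came from the established human line H9, derived from an embryo as stem cells, carried through a 10-day protocol toward nephron progenitors, the precursors of the filtering units of the kidney. Both groups were collected at the end of day 9. The first group, with glutamine, grew in complete media, and the second was deprived of glutamine from day 0, with 3 libraries each. The labels do not say whether the 3 libraries of a group came from separate cultures, so p-values measure the spread between these libraries, which may be technical. No undifferentiated H9 library was analysed here, so levels are given for day 9 only.

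Pluripotency is the capacity of a cell to form every tissue of the embryo. It is held by a small circuit of transcription factors, with POU5F1 (OCT4), NANOG and SOX2 at its core, and the circuit is shut down when the cells commit to a lineage. Around the core sit genes with their own uses later in development: SALL4 acts in embryonic progenitors and germ cells, DNMT3B lays down DNA methylation in the early embryo, and DPPA2 and DPPA4 are paired chromatin proteins of the early embryo, germ cells and stem cells. Such genes need not be shut down at the same time as the core.

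Libraries held 78220507 to 84746566 counts. Replicate 1 with glutamine stood apart from its group: across genes, which are not independent replicates, Pearson's r of log2 expression was 0.976 against replicates 2 and 3 of the same group, and against the glutamine-deprived libraries it was 0.991 to 0.993. The 7 tested genes, and many of the other named genes whose call changes, are therefore also given without it. For the rest, a call may still depend on that library. All 14 nephron progenitor and intermediate mesoderm markers were detected in the series, 12 of them at 1 CPM or more in every library (CPM is a gene's counts scaled to the library's total). The exceptions were HOXD11 and HOXA11, which were under 0.1 CPM in replicates 2 and 3 with glutamine and reached 6.05 and 5.26 CPM without it.

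The 10 genes fell into 3 classes by level. A gene was called silent where no library passed 0.5 CPM and expressed where every library had at least 1 CPM. By that rule NANOG, TDGF1 and POU5F1 were silent, UTF1 lay between, and DPPA4, SALL4, DNMT3B, ZFP42, DPPA2 and L1TD1 were expressed. The 10 genes took 0.0253% to 0.0436% of a library's counts, and DPPA4 alone made up 43.4% to 62.7% of that share. Levels of different genes are set side by side below only per length, as RPKM (CPM per kilobase of all annotated exons of a gene, merged over its transcripts), which understates a gene whose main transcript is much shorter than that length. Shares, sums and the 1 ratio given in counts or CPM are read between libraries, not between genes.

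**Figure D1:**
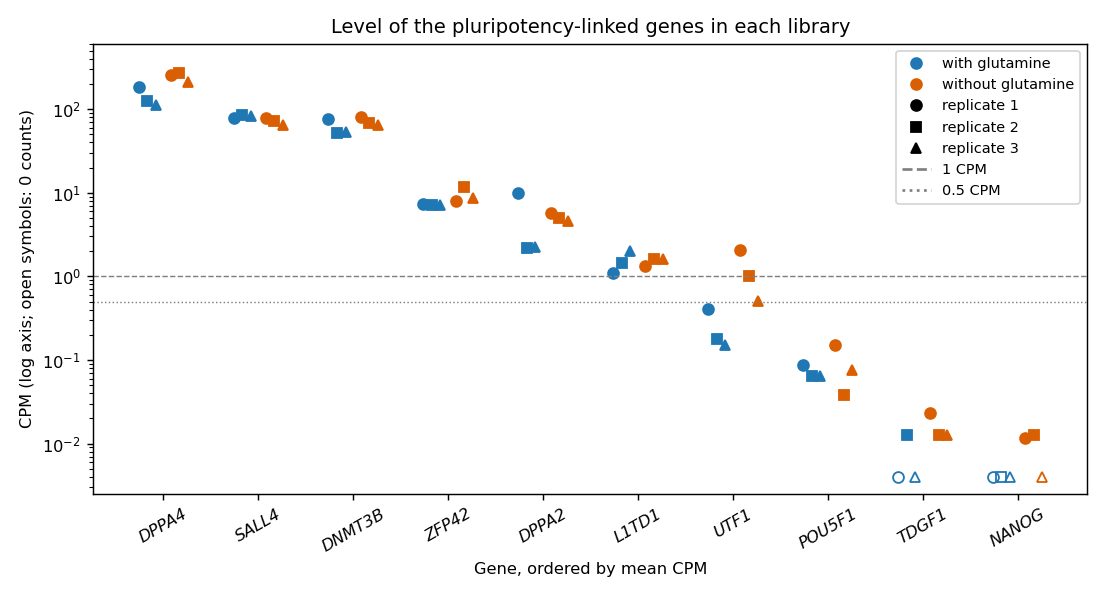
CPM on a log axis for each of the 10 genes in each of the 6 libraries (blue with glutamine, orange without; circles, squares and triangles are replicates 1, 2 and 3; open symbols are libraries with 0 counts, drawn at the bottom). DPPA4 sits between 113 and 269 CPM in every library, whereas POU5F1, TDGF1 and NANOG stay under 0.2 CPM.

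The promoter sequences of 4 of these genes are shown because they span the range of levels: DPPA4, the most abundant, DPPA2, its neighbour on the chromosome, UTF1, the gene with the largest fold difference between the groups, and NANOG, a silent core factor. RefSeq entries (GRCh38.p14) for 7 of the 10 genes were matched, and those of POU5F1, SALL4 and TDGF1 were not. Each line gives the 250 bases before the RefSeq start, read 5′ to 3′ on the gene's strand, with every CG dinucleotide, the site of DNA methylation, in capitals.
DPPA4 (chr3:109337547-109337796, minus strand): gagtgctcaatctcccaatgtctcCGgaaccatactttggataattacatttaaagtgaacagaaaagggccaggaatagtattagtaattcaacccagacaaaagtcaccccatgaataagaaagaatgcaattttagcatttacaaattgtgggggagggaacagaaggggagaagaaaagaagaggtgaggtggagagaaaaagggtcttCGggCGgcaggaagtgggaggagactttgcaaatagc
DPPA2 (chr3:109316518-109316767, minus strand): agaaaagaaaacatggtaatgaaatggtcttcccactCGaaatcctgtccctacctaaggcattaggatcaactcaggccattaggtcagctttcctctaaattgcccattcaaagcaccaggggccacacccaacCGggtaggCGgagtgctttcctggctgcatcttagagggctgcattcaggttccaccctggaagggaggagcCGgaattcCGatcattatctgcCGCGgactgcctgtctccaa
UTF1 (chr10:133229967-133230216, plus strand): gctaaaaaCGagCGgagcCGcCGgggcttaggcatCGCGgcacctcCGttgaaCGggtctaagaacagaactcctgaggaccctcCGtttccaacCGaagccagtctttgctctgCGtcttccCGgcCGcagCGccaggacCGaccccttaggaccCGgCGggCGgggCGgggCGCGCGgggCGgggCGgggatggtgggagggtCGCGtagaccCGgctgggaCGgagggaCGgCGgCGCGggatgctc
NANOG (chr12:7789152-7789401, plus strand): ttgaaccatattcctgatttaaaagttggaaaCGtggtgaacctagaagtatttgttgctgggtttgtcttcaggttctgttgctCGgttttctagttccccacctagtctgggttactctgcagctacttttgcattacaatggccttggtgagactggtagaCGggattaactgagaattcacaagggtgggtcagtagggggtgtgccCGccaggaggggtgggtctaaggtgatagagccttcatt

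Over the full RefSeq window of 300 bases, which adds 50 bases after the start, DPPA4 held 5 CG dinucleotides, DPPA2 7 and NANOG 5, against a median of 14 over 35116 windows of the same length. UTF1 held 39, more than 91.3% of those windows. ZFP42 held 24, L1TD1 14 and DNMT3B 3. The RefSeq windows of DNMT3B and NANOG lie inside the genes as annotated for the counts, at starts downstream of the first one, so they do not describe the outermost promoter. A sparse promoter thus belonged both to the most abundant of the genes, DPPA4, and to a silent one, NANOG. DNA methylation was not measured. Each window was searched on both strands for ATGCAAA, the core of the octamer bound by POU factors such as POU5F1. Of the 7 windows that of NANOG held it, at base -120 on the opposite strand, and 4.46% of all windows did. The letters GCCATNTT, the core bound by YY1 and by the related factor that ZFP42 encodes, were found in the DPPA4 window alone among the 7, at base 16 after the start, and in 6.58% of all windows. Such matches describe the letters and are not evidence of binding.

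POU5F1, NANOG and TDGF1 were silent in both groups. NANOG (ENSG00000111704, chromosome 12, 7787794 to 7799141, plus strand), a homeodomain factor of the core circuit, had 0 counts in the 3 libraries with glutamine and 1, 1 and 0 counts in replicates 1, 2 and 3 without. A count of 0 allows up to 3 counts, which is 0.0354 to 0.0384 CPM at these depths and covers counting error only. TDGF1 (ENSG00000241186, chromosome 3, 46574534 to 46582463, plus strand), a membrane-bound co-receptor for the ligand NODAL, had 0, 1 and 0 counts with glutamine and 2, 1 and 1 without. Neither gene was above that limit in any library, so no fold is given.

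POU5F1 (ENSG00000204531, chromosome 6, 31164337 to 31180731, minus strand) was close to the limit of 3 counts, with 7, 5 and 5 counts with glutamine and 13, 3 and 6 without, and at it in replicate 2 without glutamine. The groups overlapped, and the highest and the lowest library both belonged to the group without glutamine. Of its 2896 exonic bases 248 are shared with TCF19, a gene on the opposite strand with 869 to 1938 counts per library, and the strand setting of the counting is not given in the sources used here. These 3 genes did not pass the filter on low counts and were not tested. Of 15 pseudogenes and processed copies of the 10 genes, 14 were matched and 13 of them were silent. How reads that fit both a gene and a copy were counted is not known, so low counts in either may be understated. The other was SALL4P7, at 0.0986, 0.743 and 0.509 CPM with glutamine and 0.105, 0.0893 and 0.0637 without. The copies together summed to 0.678 to 1.204 CPM with glutamine and 0.357 to 0.419 without.

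SOX2, the remaining core factor and also a gene of neural and other progenitors, was expressed. Replicates 1, 2 and 3 had 11.6, 22.6 and 20.0 CPM of SOX2 with glutamine, and 17.1, 13.7 and 11.9 CPM without. Its groups overlapped, and its log2 fold change was -0.35 (edgeR adjusted p 0.381). SOX2 was called lower when replicate 1 with glutamine was left out, at -0.58 (edgeR adjusted p 0.00829). SOX2 RNA was therefore present without its usual partners POU5F1 and NANOG. In these bulk samples, fewer cells of a type and less RNA per cell cannot be told apart, here and in all results below.

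The comparison without against with glutamine asked whether the transcripts still present at day 9 differ when the amino acid is withheld. Of the 7 tested genes, edgeR called 0 at a Benjamini-Hochberg adjusted p under 0.05, where it called 0.00442% of all 22613 genes (1 gene, higher). At an adjusted p under 0.1 it called 2, DPPA4 and UTF1, both higher, against 7.3% of all genes higher and 7.23% lower. At an unadjusted p under 0.05 there were 3, all higher without glutamine (DPPA4, UTF1 and ZFP42), where 14.7% of all genes were. DESeq2 called 2 of 7, DPPA4 and UTF1, both higher, against 7.38% of all genes called higher by it and 6.3% lower. Limma-voom called 0. Without replicate 1 with glutamine, edgeR called 4 of 7 higher, DPPA4, DPPA2, UTF1 and DNMT3B, against 22.3% called higher among all 23164 genes tested there and 41.3% in either direction. The median log2 fold change of the 7 genes was 0.24, and 0.45 without that library, against 0.001 and 0.008 for all genes tested.

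DPPA4 (ENSG00000121570, chromosome 3, 109326141 to 109337572, minus strand), which encodes a chromatin protein with a SAP domain, was the most abundant of the 10 genes in every library, also per length. In complete media replicates 1, 2 and 3 had 184, 126 and 113 CPM, and in media without glutamine they had 255, 269 and 212 CPM. All 3 libraries without glutamine lay above all 3 with it, and replicate 1 with glutamine was the closest to them. The groups did not overlap in this direction for 3 of the 7 tested genes (DPPA4, ZFP42 and UTF1), against 17.3% of all genes. None of the 7 was separated in the other direction, as 16.9% of all genes were, and 34.2% of all genes were separated in either. Means were 141 ± 38.0 and 246 ± 29.7 CPM (SD, n = 3), a 1.74-fold ratio.

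The log2 fold change of DPPA4 was 0.80 (SE 0.19), with an edgeR adjusted p of 0.0724. The gene was called by DESeq2 (0.81, adjusted p 0.00108) and by edgeR without replicate 1 with glutamine (1.04, adjusted p 5.13e-05), and not under the other 14 alternatives. Over all 16 alternatives the fold change ran from 0.66 to 1.04 and the adjusted p from 5.13e-05 to 0.26. The direction of DPPA4 was thus the same under each of them, while the call depended on the tool and on 1 library. Per length DPPA4 stood at 28.2 ± 7.61 RPKM with glutamine and 49.2 ± 5.94 without (SD, n = 3), and 95.5% of protein-coding genes had a lower mean per length.

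**Figure D2:**
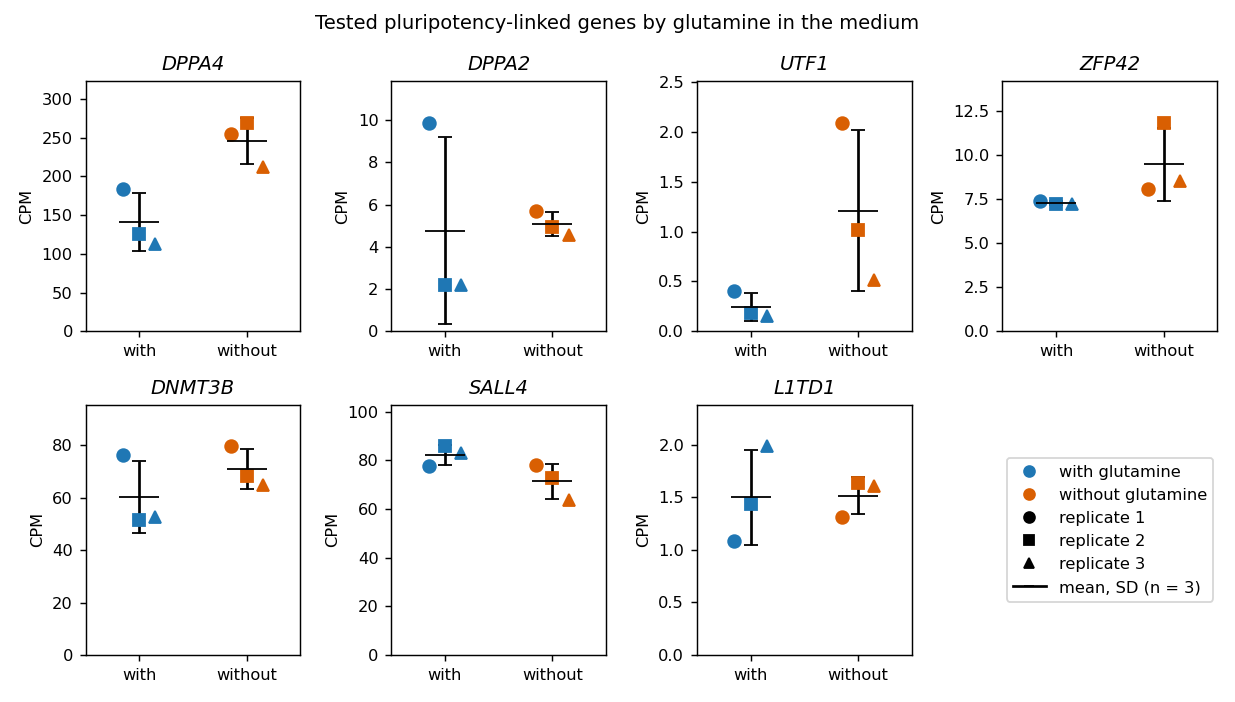
CPM of the 7 tested genes in each library (blue with glutamine, orange without; circles, squares and triangles are replicates 1, 2 and 3), with the mean and SD of each group (n = 3) in black on axes that start at 0. In DPPA4, UTF1 and ZFP42 every library without glutamine lies above every library with it, while DPPA2 is highest in replicate 1 with glutamine, at 9.88 CPM.

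DPPA2 (ENSG00000163530, chromosome 3, 109293788 to 109316517, minus strand) encodes the partner protein of DPPA4 and lies 9.6 kb from it on the same strand. It stood at 9.88, 2.18 and 2.21 CPM with glutamine and at 5.70, 4.94 and 4.58 CPM without. Replicate 1 with glutamine was 4.50 times the mean of the other libraries of its group and also above every library without glutamine, a position it held for 15.1% of all genes. EdgeR gave a log2 fold change of 0.09 with an SE of 0.57 (adjusted p 0.927). Without that library it was 1.21 (edgeR adjusted p 0.000143), and without replicate 2 or 3 with glutamine it was -0.26 and -0.25. Over the 16 alternatives the adjusted p of DPPA2 ran from 0.000143 to 1. The size and the call of this comparison thus depended on replicate 1 with glutamine, and its sign turned when either of the other libraries of that group was dropped.

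The pair of neighbours did not keep a fixed ratio. The CPM of DPPA4 divided by that of DPPA2 was 18.6 in replicate 1 with glutamine, 57.8 and 51.0 in the other libraries of that group, and 44.8, 54.5 and 46.3 without glutamine. The ratio was lowest in the library with the most DPPA2, and the other 5 libraries lay within a narrow band. Among 6 protein-coding neighbours of DPPA4, a list drawn up after values were seen, NECTIN3, an adhesion molecule gene whose start is 1732.5 kb away, had the lowest fold change. NECTIN3 was at 48.8, 103 and 103 CPM with glutamine and at 52.1, 48.4 and 54.2 CPM without, a log2 fold change of -0.72 (edgeR adjusted p 0.133). NECTIN3 was called lower when replicate 1 with glutamine was left out, at -0.99 (edgeR adjusted p 5.80e-06). DPPA4 and the other 3 tested neighbours, DPPA2 included, had positive fold changes. MORC1 was at 0.94 and C3orf85 at 1.07 (edgeR adjusted p 0.331 and 0.338). Both had few counts, with 0.102 to 0.988 CPM of MORC1 and 0 to 0.198 CPM of C3orf85 over all libraries. Both were called higher without replicate 1 with glutamine, at 2.27 and 2.51 (edgeR adjusted p 0.00167 and 0.0209). In that fit 22.3% of all genes were called higher and 19.0% lower.

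UTF1 (ENSG00000171794, chromosome 10, 133230274 to 133231558, plus strand), a chromatin-associated factor of undifferentiated stem cells, had the largest fold change and few counts. It had 33, 14 and 12 counts with glutamine and 180, 80 and 40 without, or 0.407, 0.179 and 0.153 CPM against 2.09, 1.02 and 0.509 CPM. The groups did not overlap, but the libraries without glutamine differed among themselves by more than the lowest of them differed from replicate 1 with glutamine. The log2 fold change was 2.29 (SE 0.63), with an edgeR adjusted p of 0.0839. DESeq2 called it at 2.30 (adjusted p 0.000979), and edgeR without replicate 1 with glutamine at 2.88 (adjusted p 0.00825). Over the 16 alternatives the fold change of UTF1 ran from 1.62 to 2.88 and its adjusted p from 0.000979 to 0.276.

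ZFP42 (ENSG00000179059, chromosome 4, 187995771 to 188005050, plus strand), also known as REX1, is a zinc finger gene used as a marker of undifferentiated cells. It was at 7.41, 7.18 and 7.20 CPM with glutamine and at 8.03, 11.8 and 8.53 CPM without. The 3 libraries with glutamine nearly coincided, and replicate 2 without glutamine was the highest. EdgeR put the log2 fold change at 0.38 with an SE of 0.16 (adjusted p 0.168), and ZFP42 was called under none of the 16 alternatives, which gave 0.19 to 0.49. ZFP42 kept its level in replicate 1 with glutamine, at 1.03 times the mean of replicates 2 and 3.

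DNMT3B (ENSG00000088305, chromosome 20, 32762385 to 32809356, plus strand), a de novo DNA methyltransferase, was expressed at 76.2, 51.7 and 52.9 CPM with glutamine and at 79.6, 68.3 and 65.1 CPM without. Replicate 1 with glutamine lay among the libraries without it, so the groups overlapped. EdgeR put the log2 fold change at 0.24 with an SE of 0.16 (adjusted p 0.356), and without that library it was 0.45 (edgeR adjusted p 0.00398). Over the alternatives its adjusted p ran from 0.00398 to 0.718.

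SALL4 (ENSG00000101115, chromosome 20, 51782331 to 51802520, minus strand), a zinc finger factor of embryonic progenitors, was the 1 tested gene with a negative fold change with all libraries. Its level was 77.6, 85.7 and 82.9 CPM with glutamine and 77.9, 72.6 and 63.6 CPM without. The groups overlapped by a narrow margin, since replicate 1 with and replicate 1 without glutamine were nearly level. Its log2 fold change in edgeR was -0.20 with an SE of 0.09 (adjusted p 0.193) and stayed between -0.27 and -0.13 over the 16 alternatives, none of which called it.

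L1TD1 (ENSG00000240563, chromosome 1, 62194831 to 62212328, plus strand), an RNA-binding protein gene derived from a LINE-1 element, was near the lower bound of the expressed class. It had 88, 112 and 156 counts with glutamine and 113, 128 and 126 without, or 1.08, 1.43 and 1.99 CPM against 1.31, 1.63 and 1.60 CPM. The group without glutamine lay wholly inside the range of the group with it. EdgeR gave L1TD1 a log2 fold change of 0.01 with an SE of 0.25 (adjusted p 0.974), with a sign that turned to -0.03 under upper quartile scaling.

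**Figure D3:**
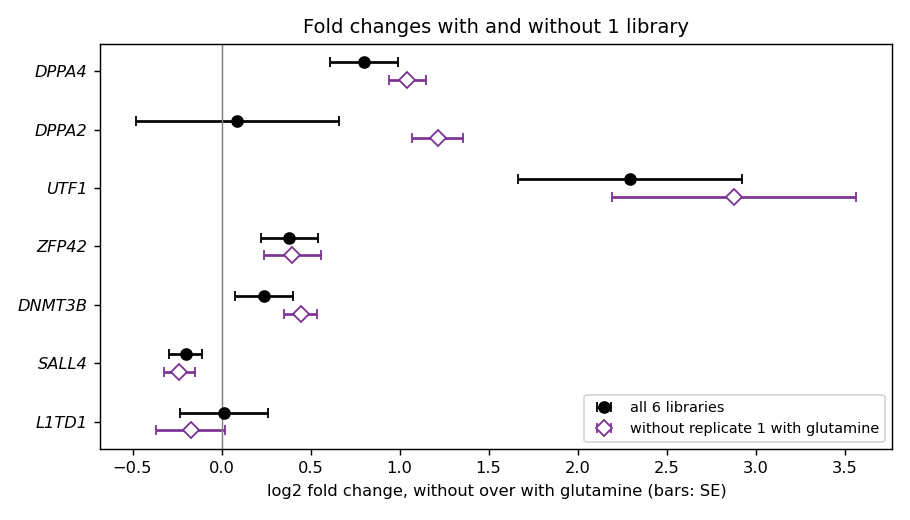
Log2 fold change without over with glutamine (positive is higher without) for the 7 tested genes, with its SE, from edgeR on all 6 libraries (black circles) and without replicate 1 with glutamine (open diamonds). DPPA2 moves from 0.09 to 1.21 when that library is left out, while ZFP42 and SALL4 shift little.

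Per length, the order of the expressed genes was DPPA4 first, then SALL4 and DNMT3B. SALL4 was at 14.2 ± 0.710 RPKM with glutamine and 12.4 ± 1.25 without, and DNMT3B at 13.0 ± 2.99 and 15.3 ± 1.65 (SD, n = 3). SALL4 and DNMT3B overlapped with glutamine, where their values ran from 13.45 to 14.84 and from 11.16 to 16.45 RPKM. DPPA2 and ZFP42 came next, at 3.44 ± 3.21 and 2.74 ± 0.0466 RPKM with glutamine and 3.67 ± 0.411 and 3.56 ± 0.774 RPKM without, and they too did not differ beyond their spread. L1TD1 was at 0.390 ± 0.118 and 0.394 ± 0.0459 RPKM. UTF1 was below L1TD1 in replicates 2 and 3 with glutamine and above it in every library without glutamine. POU5F1 had 0.0132 to 0.0522 RPKM in all libraries.

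The tested genes differed in how closely they followed DPPA4 across libraries. Likeness to DPPA4 was measured as the root mean square difference of log2 CPM over the 6 libraries, after each gene was centred on its own mean, so that a smaller value means a more similar pattern. DNMT3B differed from DPPA4 by 0.31, ZFP42 by 0.34, DPPA2 by 0.55, SALL4 by 0.58, L1TD1 by 0.62 and UTF1 by 0.83. The median over 11921 other genes with a mean of at least 5 CPM was 0.49, and a gene with no variation at all would score 0.48, the spread of DPPA4 about its own mean. DNMT3B and ZFP42 were thus closer to DPPA4 than a flat gene would be, and the others were not. DNMT3B and ZFP42 ranked 1322 and 1776 among the 11921 genes, so many genes were closer. DPPA2, L1TD1 and UTF1 had means under 5 CPM, a level that the median does not cover. The measure counts size as well as direction, so UTF1, whose groups separate in the same direction as those of DPPA4, scored far from it with its larger change. The 5 closest genes differed by 0.05 to 0.08 and were NPDC1, CAMK2N1, an inhibitor of the kinase CaMKII, MAMDC4, CDCA3, a cell division gene, and KDM2B, a CpG island-binding protein of a Polycomb complex. KDM2B was at 212, 136 and 126 CPM with glutamine and at 291, 262 and 229 CPM without.

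**Figure D4:**
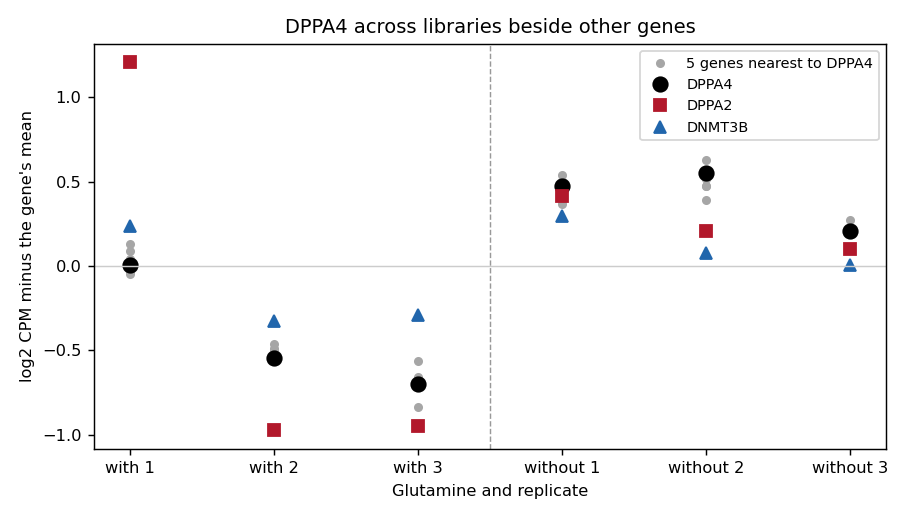
Log2 CPM minus each gene's own mean in the 6 libraries for DPPA4 (black), the 5 genes with the most similar pattern (grey), DPPA2 (red squares) and DNMT3B (blue triangles). DPPA4 and its nearest genes lie below their means in replicates 2 and 3 with glutamine and above them in the 3 libraries without, and DPPA2 is highest in replicate 1 with glutamine.

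Of 30 further genes of the core and of primed pluripotency, all were matched: 12 were expressed, 8 lay between and 10 were silent. EdgeR tested 22 and called 0, and limma-voom called 0. At an unadjusted p under 0.05 in edgeR 4 were higher and 4 lower, where 14.7% and 15% of all genes were. DESeq2 called 3 higher and 2 lower of 23, against 7.38% and 6.3% of all genes. Without replicate 1 with glutamine edgeR called 8 higher and 10 lower of 23, where 22.3% and 19.0% of all genes were called. The median log2 fold change was -0.11. LIN28A, an RNA-binding protein that blocks let-7 maturation, was at 156, 310 and 322 CPM with glutamine and at 152, 132 and 125 CPM without, opposite in direction to DPPA4 (log2 fold change -0.95, edgeR adjusted p 0.0829). SFRP2, a secreted WNT modulator, was at 172, 54.0 and 54.9 CPM in the presence of glutamine and at 303, 288 and 254 CPM without (1.59, edgeR adjusted p 0.0856). With that library left out edgeR called LIN28A lower, at -1.21 (adjusted p 5.32e-06), and SFRP2 higher, at 2.37 (adjusted p 1.43e-07). For LIN28A and SFRP2 alike, the first library with glutamine was closer to the libraries without it than to its own group.

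Of 6 matched genes linked to LTR7 elements, whose RNAs mark human stem cells, 5 were silent and none reached 1 CPM in any library. ESRG among them had at most 0.0509 CPM. The remaining one, ABHD12B, was at 0.419 to 0.615 CPM with glutamine and 0.186 to 0.281 without, and edgeR called it lower without replicate 1 with glutamine, at -1.42 (adjusted p 0.00279). Of 11 matched cleavage-stage genes, which in other systems are activated downstream of DPPA2 and DPPA4, 10 were silent and 4 had no count in any library. TRIM43 was the exception, at 3.94, 6.02 and 6.11 CPM with glutamine and 2.37, 1.77 and 1.97 CPM without. Its log2 fold change was -1.39 (edgeR adjusted p 0.0679), and it was called lower without replicate 1 with glutamine, at -1.56 (edgeR adjusted p 2.21e-05). CCNA1, a cyclin of the germ line and a silent gene by level, went the other way, at 0.185, 0.179 and 0.102 CPM with glutamine and 0.442, 0.498 and 0.382 CPM without. Its log2 fold change was 1.49 (edgeR adjusted p 0.0682), or 1.64 without that library (edgeR adjusted p 0.00414). DESeq2 called TRIM43 lower and CCNA1 higher, where it called 6.3% and 7.38% of all genes. Without replicate 1 with glutamine edgeR called 1 lower and 1 higher of 3 cleavage-stage genes tested, against 19.0% and 22.3% of all genes.

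DNMT3B was accompanied by the rest of the DNA methylation machinery. Of 10 enzymes and partners 9 were expressed, and DNMT3L, the cofactor active in germ cells, had no count. EdgeR called 0 of 9, with 2 higher and 3 lower at an unadjusted p under 0.05, where 14.7% and 15% of all genes were. Without replicate 1 with glutamine it called 2 higher and 3 lower, against 22.3% and 19.0% of all genes. Limma-voom called 0. DESeq2 called 1 of 9 higher, UHRF1, and 1 lower, TET1, against 7.38% and 6.3% of all genes. TET1, which oxidises methylcytosine, was at 114, 231 and 211 CPM with glutamine and at 99.2, 79.2 and 80.4 CPM without, which edgeR put at -1.10 on the log2 scale with an SE of 0.25 (adjusted p 0.0718), and at -1.35 without that library (adjusted p 7.10e-06). UHRF1, which guides DNMT1 to replicated DNA, was at 60.8, 48.8 and 54.4 CPM in the presence of glutamine and at 91.1, 71.4 and 68.4 CPM without (0.49, edgeR adjusted p 0.0827, and 0.58 without that library, adjusted p 0.00408). DNMT1 and DNMT3A had fold changes of 0.11 and 0.03.

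SALL4 can be set beside its family. SALL1, SALL2 and SALL3 were expressed in every library, and their log2 fold changes were 0.30, -0.001 and 0.19, with 0 of 3 called by edgeR, DESeq2 or limma-voom and 0 at an unadjusted p under 0.05. SALL1, a regulator of the metanephric mesenchyme, was at 155, 114 and 112 CPM with glutamine and at 170, 154 and 145 CPM without. Without replicate 1 with glutamine edgeR called SALL1 higher, at 0.47 (adjusted p 0.00123), and not the other members. That is 1 of 3, where 22.3% of all genes were called higher and 19.0% lower.

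TDGF1 was silent while receptors and signal transducers of the pathway it serves were expressed. Of 14 NODAL pathway genes 7 were expressed, among them the receptor ACVR2B and the signal transducers SMAD2, SMAD3 and SMAD4. Another 3 lay between, the ligand gene NODAL among them, and 4 were silent. EdgeR called 0 of 11, with 5 lower at an unadjusted p under 0.05 against 15% of all genes. Without replicate 1 with glutamine it called 4 lower and 0 higher, against 19.0% and 22.3% of all genes. With all libraries limma-voom called 0. DESeq2 called 1 of 11 lower, ACVR2B, and 0 higher, against 6.3% and 7.38% of all genes. ACVR2B was at 264, 346 and 327 CPM with glutamine and at 247, 226 and 225 CPM without (log2 fold change -0.43, edgeR adjusted p 0.0783, and -0.53 without that library, adjusted p 0.000274). NODAL itself was at 0.560 to 1.18 CPM over the 6 libraries.

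Markers of other cells that can carry these genes were read beside them. Of 11 germ cell markers 5 were silent and 3 had no count, DAZL and DND1 among them, and the list summed to 52.8 to 85.1 CPM with glutamine and 91.0 to 95.6 without. KIT, a receptor also found on many progenitors, made up most of that sum, at 76.7, 45.1 and 47.0 CPM with and 87.0, 88.5 and 85.3 CPM without. Of 7 epithelial and definitive endoderm markers 3 were expressed, and the list summed to 57.7 to 110.5 CPM with glutamine and 184 to 206 without. Of 6 tested in that list, 5 had positive fold changes. The other, SOX17, which is also in the germ cell list, had a negative one. EPCAM, an epithelial adhesion gene that stem cells also carry, was at 24.2, 6.89 and 8.03 CPM in the presence of glutamine and at 45.4, 51.2 and 41.8 CPM without, and FOXA2 was at most 0.0509 CPM. With replicate 1 with glutamine left out, edgeR called KIT and EPCAM higher, at 0.92 and 2.63 (adjusted p 7.01e-06 and 3.19e-07). The nephron progenitor list summed to 1049 to 1701 CPM with glutamine and 1593 to 2127 without. The germ cell genes did not share 1 direction: of 8 tested, KIT included, 4 had positive and 4 negative fold changes. TFAP2C was at -1.31 and SOX17 at -1.60 (edgeR adjusted p 0.101 and 0.0857), and NANOS3 was at 1.61 (edgeR adjusted p 0.0762). DESeq2 called NANOS3 and KIT higher and TFAP2C and SOX17 lower, 2 each of 8, against 7.38% and 6.3% of all genes. Without replicate 1 with glutamine edgeR called 4 higher and 3 lower of 8, against 22.3% and 19% of all genes. TFAP2C and SOX17 were then at -1.54 and -1.94, and NANOS3 at 1.97 (edgeR adjusted p 0.00321, 0.000354 and 0.00509). The germ cell sum, carried by KIT, and the epithelial sum did not overlap between the groups. Both were higher without glutamine, as the DPPA4 values were. The nephron progenitor sums overlapped only through replicate 1 with glutamine, at 1701 CPM, since replicates 2 and 3 had 1114 and 1049 CPM. The part of these cell types in the DPPA4 difference was not tested. The 9 neural markers summed to 471 to 514 CPM with and 473 to 597 without. NES made up most of that sum, at 428 to 470 CPM with and 432 to 571 CPM without. Of the 9, 3 were silent, and of 8 tested 4 had positive and 4 negative fold changes. The 8 primitive streak markers summed to 6.14 to 20.2 CPM with glutamine and 5.68 to 7.24 CPM without.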

How the data were processed

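The authors deposited raw counts per Ensembl gene for 6 libraries made with a stranded mRNA kit and sequenced from 1 end (50 nt). The submitters' processing notes name cutadapt, Trim Galore, FastQC, STAR 2.5.2b and DESeq2, with the build GRCh38. The counting program, annotation and strand setting are not given in the sources used here. The authors also deposited normalized counts, treated as a signal: raw counts divided by 1 size factor per library (0.977 to 1.08), used here as an alternative scale. Headings name days 0 and 9, but each sample's description assigns its heading, and the labels place all samples at day 9.

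Symbols, positions and exon lengths came from GENCODE 29 (56531 IDs matched). Counts were tested with edgeR 4.0.16 in R 4.3.3 (quasi-likelihood F test, legacy = FALSE, robust = FALSE, filterByExpr, TMM, group only), with Benjamini-Hochberg adjustment over all genes tested and a threshold of 0.05. CPM are counts over TMM-scaled library sizes, with a prior count of 2 for log values in the likeness measure. The SE is the fold change divided by the square root of F. Alternatives used limma 3.58.1 and DESeq2 1.42.0. The edgeR fit was tried on simulated counts, where it recovered 78% of changes of 1 log2 unit and 100% of changes of 2. It made 8 false calls there, and 0 where no gene was changed. The simulated libraries of a group shared 1 mean per gene, so none stood apart as replicate 1 with glutamine did. The simulation thus cannot show how the fit handles such a library. Changes were planted only in genes with a mean above 1 CPM, and each gene was given the spread typical of its level. The recovery therefore does not describe UTF1, at a mean of 0.727 CPM, or genes that vary more than is typical. The 10 genes and the lists were chosen with earlier results of these data known. For each list the text could name the 3 genes with the highest mean CPM, the 2 highest and 2 lowest fold changes at a mean of 1 CPM or more, and any gene with an adjusted p under 0.05, beside the 5 genes most like DPPA4. NODAL, DNMT3L, TCF19, DAZL, DND1, FOXA2, NANOS3, SOX17, MORC1 and C3orf85 were named after their values were seen.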

Additional observations from a re-analysis of the deposited data

How the results depend on the processing

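The tests rest on 3 libraries a group, and the genes with few counts (UTF1 and L1TD1) are limited by counting error as well. The count of all called genes was 1. It was 3030 under DESeq2, 2 with no filter, and 0 under upper quartile scaling, library size only, edgeR's legacy setting and limma-voom. Of the 10 genes 0 were called with all libraries and 2 under DESeq2. Leaving out 1 library gave 0 to 9573 called genes and 0 to 4 of the 10 genes, both highest when replicate 1 with glutamine was dropped. Dropping replicate 1 of the deprived group gave 17 genes. The cause was not tested. Same-numbered libraries did not deviate together (correlations of -0.021, 0 and 0.028), and with the replicate block 0 genes and 0 of the 10 were called. Of 112 fold changes of the 7 tested genes under alternatives, 99 had the same sign and call, 6 gained a call and 7 reversed. L1TD1 reversed at -0.03 with upper quartile scaling, and over the leave-one-out fits L1TD1 ran from -0.17 to 0.27 and DPPA2 from -0.26 to 1.21. The largest shift of the typical gene by a scaling was -0.044 (log2). The classes of the 10 genes held on the authors' normalized counts, with 6 expressed and 3 silent. At 5 CPM 4 were expressed, and at 0.1 CPM 2 were silent.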
